A study of Mus musculus with 9 samples.

Results

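A set of 7 interferon-stimulated genes was followed in mouse lung tumour cells: Bst2, Ifit1bl1, Isg15, Stat2, Irf1, Irf7 and Irf9. They were taken by name from the rows of the deposited table of values. All 7 are among its 12339 genes, and all 7 passed the filter on low reads. The RNA came from KP-GFP lung tumour cells of C57BL/6 origin that carry GFP, and the labels give no further alleles of these cells. In the TRM co-culture the tumour cells grew as spheroids with tissue-resident macrophages of the lung (TRMs, here alveolar macrophages), in the monocyte co-culture with bone-marrow monocytes, and in the third group alone, with 3 libraries per group. Each spheroid was started from 2500 tumour cells, with 5000 added cells in both co-cultures and none in the spheroids grown alone, and grew for 7 days. A total of 32 spheroids per condition went into a pool that was dissociated for 20 min at 37 °C and sorted for GFP, so that 20000 to 170000 sorted cells gave the RNA of a library, of which 1 ng was turned into cDNA. The libraries held 16001895 to 32771448 reads. Whether replicates were separate cultures is not stated in the labels, and p-values therefore speak of the spread among these libraries alone, which could be technical.

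Interferons are secreted proteins that signal through paired receptors, the kinases of the JAK family and STAT transcription factors. Type I and type III interferons join STAT proteins, Stat2 among them, and Irf9 into the complex ISGF3, which binds the interferon-stimulated response element (ISRE), whereas interferon gamma acts through STAT dimers at gamma-activated sites (GAS). The genes switched on include antiviral effectors such as the IFIT proteins, and they include Irf1, Irf7, Irf9 and Stat2 themselves, so their levels are widely read as a record of interferon exposure. In the lung, both epithelial cells and macrophages can make and answer interferons.

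The DNA just before the RefSeq start of each gene (GRCm38.p6) is shown for the members that hold a match to either element, because these elements are the ones through which the interferon routes act. The search used GAAANNGAAA, or TTTCNNTTTC for the other strand, as the ISRE core and TTCNNNGAA, which reads alike on both strands, as the GAS, in the 250 bases before each start. Matches are in capitals, and each sequence runs 5′ to 3′ along the gene's strand.

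Bst2, minus strand, chr8:71537473-71537722: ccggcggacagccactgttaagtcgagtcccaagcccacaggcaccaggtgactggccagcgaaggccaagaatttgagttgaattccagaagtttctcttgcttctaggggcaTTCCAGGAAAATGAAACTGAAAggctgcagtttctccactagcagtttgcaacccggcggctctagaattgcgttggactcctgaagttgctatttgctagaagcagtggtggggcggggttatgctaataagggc

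Ifit1bl1, minus strand, first start, chr19:34601969-34602218: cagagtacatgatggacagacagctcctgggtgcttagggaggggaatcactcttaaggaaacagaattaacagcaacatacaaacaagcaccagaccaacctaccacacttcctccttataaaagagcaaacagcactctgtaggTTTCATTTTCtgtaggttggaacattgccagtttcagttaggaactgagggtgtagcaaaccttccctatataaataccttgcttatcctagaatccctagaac

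Isg15, minus strand, chr4:156200819-156201068: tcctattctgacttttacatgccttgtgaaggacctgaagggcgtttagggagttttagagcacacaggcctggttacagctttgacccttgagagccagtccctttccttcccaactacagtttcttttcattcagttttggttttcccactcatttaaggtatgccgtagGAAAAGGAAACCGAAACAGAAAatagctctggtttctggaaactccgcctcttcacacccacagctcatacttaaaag

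Stat2, plus strand, chr10:128270248-128270497: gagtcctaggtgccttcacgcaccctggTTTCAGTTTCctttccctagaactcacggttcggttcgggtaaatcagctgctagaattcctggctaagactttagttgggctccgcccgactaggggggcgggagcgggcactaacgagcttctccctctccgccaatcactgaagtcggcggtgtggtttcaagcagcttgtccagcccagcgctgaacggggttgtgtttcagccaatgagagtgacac

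Irf1, plus strand, first start, chr11:53769764-53770013: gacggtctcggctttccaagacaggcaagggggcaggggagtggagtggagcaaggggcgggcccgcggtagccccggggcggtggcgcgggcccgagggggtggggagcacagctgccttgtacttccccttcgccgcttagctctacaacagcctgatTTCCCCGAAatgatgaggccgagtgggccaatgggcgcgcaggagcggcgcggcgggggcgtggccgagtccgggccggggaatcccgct

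The ISRE letters begin 130 and 124 bases before the start of Bst2, and these matches overlap each other. The match at 130 bases also overlaps a GAS match that begins at 136 bases. In Ifit1bl1 the ISRE letters lie 104 bases before the first start and 23 bases before the second. Isg15 holds 3 overlapping ISRE matches, beginning 78, 72 and 66 bases before its start, and Stat2 holds 1, at 222 bases. Irf1 holds no ISRE match and a GAS match 90 bases before its first start. The windows of Irf7 and Irf9 hold neither set of letters, which says only that these letters are not in these windows. Among all 32851 RefSeq windows of this length, 2.98% hold the ISRE letters and 7.02% the GAS letters. A match describes the sequence and is not evidence of binding in these cells.

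The 7 genes shared no direction in either co-culture. Ifit1bl1, an Ifit1-like gene of the IFIT cluster, fell 10.5-fold with TRMs and 10.1-fold with monocytes, and Bst2, which encodes tetherin, a surface protein that holds budding viruses on the cell, rose 2.28-fold in the monocyte co-culture. Neither Isg15 nor any of Stat2, Irf1, Irf7 and Irf9 passed the test in any comparison. Levels are in scaled CPM, reads scaled to a library size corrected with TMM factors, and the tests were limma on their log2 values over all 12326 genes tested, with a gene called where the Benjamini-Hochberg adjusted p was under 0.05. With TRMs, 0 of the 7 rose and 1 fell, which is 14.3% of them, where 18.4% of all genes were called (10.2% higher and 8.15% lower). That is 1257 genes higher and 1005 lower, and 1003 higher and 1302 lower where libraries were scaled by their totals alone, without TMM factors. With monocytes, 1 rose and 1 fell, or 28.6%, where 27.3% of all genes were called (14.7% higher and 12.7% lower). The members were therefore called about as often as the background, and their median log2 fold change was -0.11 with TRMs and 0.05 with monocytes, beside medians of 0.0 and -0.02 for all genes tested. Both comparisons use the same 3 libraries of tumour cells alone.

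**Figure D1:**
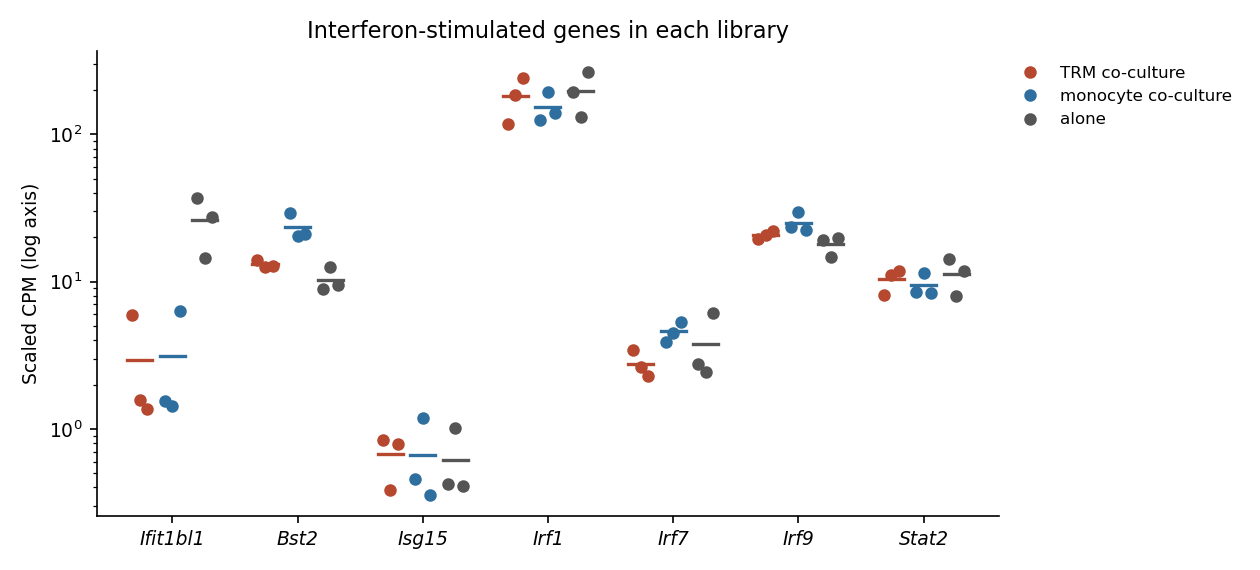
Scaled CPM (log axis) of the 7 genes in each of the 9 libraries, with TRM co-culture in red, monocyte co-culture in blue and tumour cells alone in grey; points are libraries and short lines are means of 3. Ifit1bl1 lies at 1.36 to 6.33 in the co-cultures and at 14.5 to 36.9 alone, whereas the groups of Isg15, Irf1 and Stat2 overlap.

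Among the antiviral effectors, Ifit1bl1 (ENSMUSG00000079339.7, chromosome 19, 34592891 to 34601956, minus strand in GENCODE M21) gave the clearest difference. It stood at 5.91, 1.56 and 1.36 scaled CPM in the TRM co-culture, at 1.54, 1.44 and 6.33 in the monocyte co-culture, and at 36.9, 14.5 and 27.3 in the tumour cells alone. Every co-culture library lay below every library of tumour cells alone, and TRM replicate 1 and monocyte replicate 3 were the highest co-culture libraries. The level was 10.5-fold lower with TRMs (log2 fold change -3.39, SE 0.63, 95% interval -4.76 to -2.03, limma adjusted p = 0.00247). With monocytes it was 10.1-fold lower (log2 fold change -3.34, SE 0.63, interval -4.70 to -1.97, limma adjusted p = 0.00184). Both calls held under all 18 alternatives, with adjusted p between 0.000454 and 0.0173 for TRMs and between 0.000221 and 0.0113 for monocytes. Single libraries moved the size: without TRM replicate 1 the difference was 16.7-fold, and without monocyte replicate 3 it was 16.4-fold. Between the co-cultures the log2 fold change, TRM over monocyte, was -0.05 with an interval of -1.42 to 1.31 (limma adjusted p = 0.99). In the authors' deposited tables the log2 fold change of Ifit1bl1 was -3.12 with TRMs and -3.05 with monocytes. Of the 31-base stretches in its exons, 19.3% also occur in other genes, mainly Ifit1bl2, so some of its reads may belong to that gene. Less RNA per cell and fewer cells with the RNA cannot be told apart in these bulk libraries.

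The same 2 co-culture libraries also stood high for epithelial marker genes: TRM replicate 1 was the highest of its group for 8 of 9 such markers, and monocyte replicate 3 for 9 of 9. Cldn7, a tight-junction claudin of epithelial cells, was named, after its values had been seen, because its level moved with that of Ifit1bl1. It stood at 263, 184 and 192 scaled CPM with TRMs, at 126, 110 and 238 with monocytes and at 326, 291 and 337 alone. Its highest co-culture libraries were thus TRM replicate 1 and monocyte replicate 3, as for Ifit1bl1. The same was true of Cldn4, at 1030, 637 and 547 with TRMs and at 471, 506 and 744 with monocytes. In tumour cells alone Cldn4 stood at 1380, 970 and 1200. The 3 genes whose log2 levels followed Ifit1bl1 most closely over the 9 libraries were Lgals4, the epithelial lectin galectin-4 (r = 0.995), Tmprss2, a membrane protease of epithelial cells (r = 0.993), and Vnn1, a pantetheinase (r = 0.992). These correlations describe libraries that share the co-culture difference. Over the whole list, 9 of 10 epithelial markers are in the table, with summed levels of 15400 to 19400 with TRMs, 10600 to 16600 with monocytes and 15300 to 17300 alone; Nkx2-1 is not a row. Of these 9, none rose and 1 fell with TRMs, and none rose and 4 fell with monocytes. Called lower among all genes were 8.15% with TRMs and 12.7% with monocytes. With TRMs the log2 fold changes of these markers ran from -0.72 for Cldn4 to 0.46 for Krt19 and Krt7. Those of Epcam (0.15) and Krt8 (0.05) were also above 0. That of Cldn7 was -0.59 (limma adjusted p = 0.103). The part of these markers in the result for Ifit1bl1 was not tested.

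Bst2 (ENSMUSG00000046718.8, chromosome 8, 71534255 to 71537456, minus strand) moved the other way. Its levels were 14.0, 12.6 and 12.8 scaled CPM with TRMs, 29.4, 20.3 and 21.2 with monocytes, and 8.86, 12.6 and 9.54 alone. All 3 monocyte co-culture libraries lay above the other 6 libraries, while the lowest TRM library and the highest library of tumour cells alone were both near 12.6. The monocyte co-culture averaged 23.6 ± 5.04 and the tumour cells alone 10.3 ± 1.97 (SD, n = 3 each), a 2.28-fold difference (log2 fold change 1.19, SE 0.22, interval 0.71 to 1.67, limma adjusted p = 0.00171) that was called under all 18 alternatives. With TRMs the log2 fold change was 0.36 (interval -0.12 to 0.84, limma adjusted p = 0.298). Set directly against each other, TRM co-culture was 1.78-fold lower than monocyte co-culture (log2 fold change -0.83, interval -1.31 to -0.35), with a limma p of 0.00251 and an adjusted p of 0.135, which misses the threshold. DESeq2 on the recovered reads called this difference, with an adjusted p of 0.0293, and it was the sole alternative of 18 to do so. No 31-base stretch of Bst2 exons occurs in another gene.

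Isg15 (ENSMUSG00000035692.6, chromosome 4, 156199424 to 156200818, minus strand), a ubiquitin-like protein that is attached to other proteins after interferon exposure, had few reads, with 13, 6 and 19 reads in the TRM libraries, 8, 28 and 8 in the monocyte libraries and 9, 22 and 13 in the libraries of tumour cells alone. In scaled CPM these were 0.845, 0.383 and 0.794 with TRMs, 0.459, 1.19 and 0.358 with monocytes, and 0.424, 1.02 and 0.406 alone. The 3 groups overlapped. Its intervals were wide, at -1.80 to 2.17 on the log2 scale with TRMs and -1.93 to 2.04 with monocytes (limma adjusted p = 0.916 and 0.972), so that ratios to tumour cells alone anywhere from 0.287 to 4.49 with TRMs and from 0.263 to 4.10 with monocytes lie within them, and no difference was detectable at this depth. The exons of Isg15 share 13.1% of their 31-base stretches with other genes.

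Stat2 and Irf9 encode subunits of ISGF3. Stat2 (ENSMUSG00000040033.16, chromosome 10, 128270559 to 128292849, plus strand) stood at 8.17, 11.1 and 11.9 scaled CPM with TRMs, at 8.57, 11.4 and 8.31 with monocytes and at 14.2, 7.95 and 11.9 alone. These groups overlapped in both comparisons, and the log2 fold change was -0.11 with TRMs (interval -0.70 to 0.49, limma adjusted p = 0.833) and -0.24 with monocytes (interval -0.84 to 0.35, limma adjusted p = 0.554). Irf9 (ENSMUSG00000002325.15, chromosome 14, 55603571 to 55610030, plus strand) stood at 19.5, 20.8 and 22.1 with TRMs, at 23.6, 29.7 and 22.3 with monocytes and at 19.2, 14.7 and 19.9 alone. All 3 monocyte libraries of Irf9 lay above all 3 libraries of tumour cells alone. The log2 fold change with monocytes was 0.49 (SE 0.19, interval 0.07 to 0.91), with a limma p of 0.0255 and an adjusted p of 0.0798, and no alternative called it. With TRMs it was 0.22 (interval -0.20 to 0.64, limma adjusted p = 0.482). Irf9 shares 123 exon bases with Rnf31 on the same strand, and reads there could be counted for either gene.

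Irf1 and Irf7 are transcription factors that interferons induce. Irf1 (ENSMUSG00000018899.16, chromosome 11, 53770014 to 53778374, plus strand), which interferon gamma strongly induces, stood at 118, 185 and 240 scaled CPM with TRMs, at 125, 194 and 140 with monocytes and at 194, 132 and 266 alone. Each group spread widely and all 3 overlapped, with a log2 fold change of -0.13 with TRMs (interval -0.72 to 0.46, limma adjusted p = 0.80) and -0.34 with monocytes (interval -0.93 to 0.25, limma adjusted p = 0.391). Irf7 (ENSMUSG00000025498.15, chromosome 7, 141262706 to 141266481, minus strand), which drives interferon genes themselves, stood at 3.41, 2.62 and 2.30 with TRMs, at 3.92, 4.50 and 5.36 with monocytes and at 2.74, 2.42 and 6.17 alone. Its libraries with monocytes lay above those with TRMs, and the libraries of tumour cells alone lay on both sides of that gap. The log2 fold change of Irf7 was -0.33 with TRMs (interval -1.23 to 0.57, limma adjusted p = 0.643), 0.40 with monocytes (interval -0.50 to 1.30, limma adjusted p = 0.511) and -0.73 for TRM over monocyte co-culture (interval -1.63 to 0.17, limma adjusted p = 0.547). On the opposite strand, Gm17334 overlaps 135 exon bases of Irf1 and Phrf1 overlaps 45 of Irf7, and the library kit is not stated to keep strand.

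**Figure D2:**
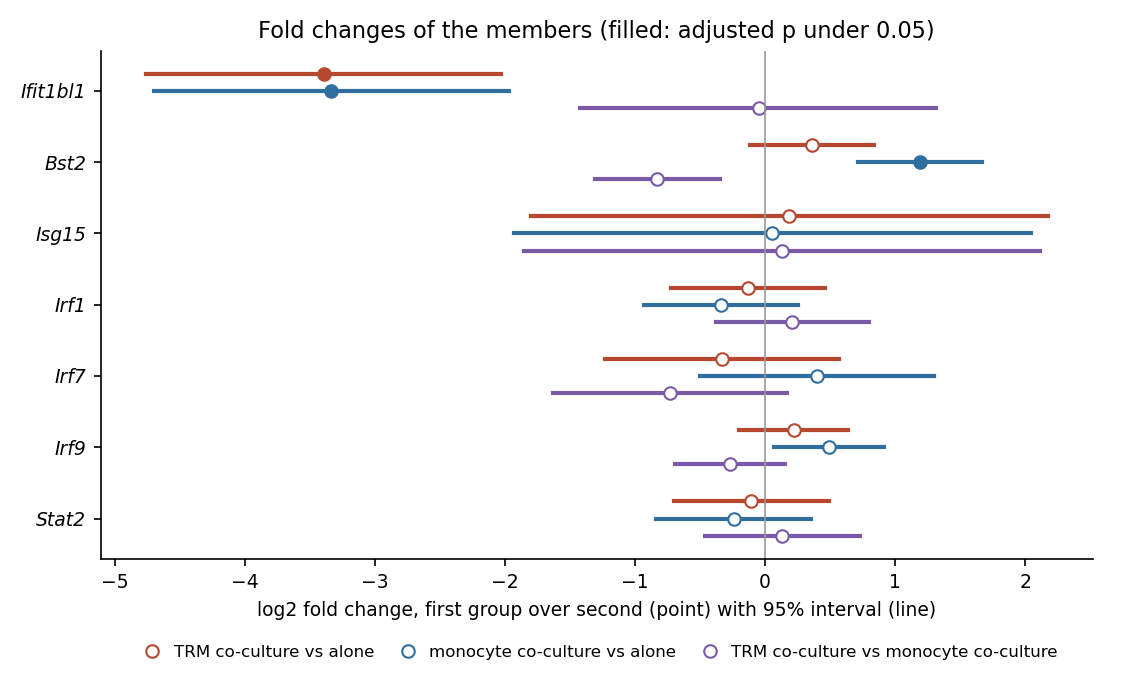
Log2 fold changes (points) with 95% intervals (lines) of the 7 genes in 3 comparisons, first group over second: TRM co-culture over alone in red, monocyte co-culture over alone in blue and TRM over monocyte co-culture in purple; filled points have an adjusted p under 0.05. Ifit1bl1 lies at -3.39 and -3.34, Bst2 at 1.19 in the monocyte co-culture, and the interval of Isg15 is the widest.

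Per kilobase of annotated exon, with the exons of all transcripts of a gene merged, Irf1 was the most abundant of the 7 in every group. Merged exons can be longer than a single transcript, and those of Irf7 cover its whole span (3776 bases). Levels of different genes therefore compare only roughly on this scale. In the TRM co-culture Irf1 averaged 45.6 ± 15.3 scaled CPM per kilobase, followed by Bst2 at 14.5 ± 0.822, Irf9 at 3.86 ± 0.245 and Stat2 at 1.75 ± 0.328 (SD, n = 3). Ifit1bl1 (1.30 ± 1.14), Isg15 (0.891 ± 0.335) and Irf7 (0.736 ± 0.151) came last and did not differ beyond their spread. In the monocyte co-culture Irf1 (38.4 ± 9.21) and Bst2 (26.2 ± 5.58) lay within their spread of each other, above Irf9 at 4.68 ± 0.737, and the other 4 averaged between 0.886 and 1.59. In tumour cells alone Ifit1bl1 ranked second with 11.6 ± 4.98, level with Bst2 at 11.4 ± 2.19, below Irf1 at 49.7 ± 16.9 and above Irf9 at 3.33 ± 0.522. On this rough scale the order of the 7 thus changed mainly through Ifit1bl1. It stood beside Bst2 in tumour cells alone and near Stat2, Irf7 and Isg15 in the co-cultures.

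Ifit1bl1 lies within the IFIT cluster of chromosome 19, whose other measured genes were set beside it for their position, after their values had been seen. IFIT proteins bind viral RNA and block its translation. Ifit3 stood at 0.532, 0.855 and 0.916 scaled CPM with TRMs, at 2.46, 2.95 and 1.91 with monocytes, and at 1.81, 2.60 and 4.22 alone. It was 3.63-fold lower with TRMs (limma adjusted p = 0.0275), a call lost under 5 of 18 alternatives, namely limma-voom and the fits without alone replicates 2 or 3 or TRM replicates 1 or 2. With monocytes its log2 fold change was -0.17 (limma adjusted p = 0.844). Ifit1 stood at 1.85, 0.265 and 0.143 with TRMs, at 1.92, 2.99 and 2.76 with monocytes, and at 2.34, 0.657 and 4.64 alone. Its log2 fold change with TRMs was -2.23 (limma adjusted p = 0.121), which passed the threshold without TRM replicate 1 (0.0194) or alone replicate 2 (0.0488). Ifit2 averaged 8.44 ± 1.10 with TRMs, 14.1 ± 5.08 with monocytes and 8.11 ± 0.797 alone (SD, n = 3 each). It was not called by limma, although its difference with monocytes (log2 fold change 0.74, limma adjusted p = 0.0658) passed in edgeR (0.0487), in DESeq2 (0.0397) and without monocyte replicate 3 (0.0152). Ifit3b was not called by limma either, and passed with TRMs in DESeq2 (0.042). Of the 31-base stretches, 61.8% of those of Ifit3 and 55.3% of those of Ifit3b occur in other genes, mainly each other. The split of reads between them is uncertain. Ifit1 shares 10.8% of its stretches with other genes, mainly Ifit1bl1, so some of its reads may belong to that gene. Whether the co-cultures differ in these genes was tested directly, and none was called (limma adjusted p from 0.206 to 0.99 over the 5 genes of the cluster).

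**Figure D3:**
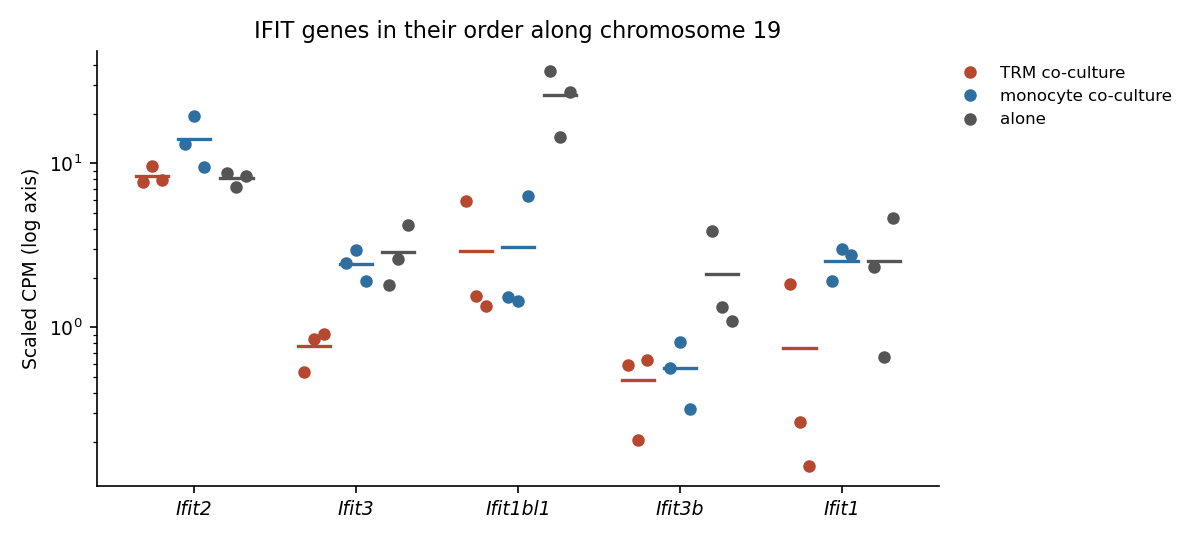
Scaled CPM (log axis) of 5 IFIT genes in each library, in their order along chromosome 19, with TRM co-culture in red, monocyte co-culture in blue and tumour cells alone in grey; points are libraries and short lines are means of 3. Ifit1bl1 and Ifit3b are lower on average in both co-cultures, Ifit3 is at 0.532 to 0.916 with TRMs, and Ifit2 overlaps between TRM co-culture and tumour cells alone.

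Beyond the 7 genes, 122 of 175 other listed interferon-pathway genes were tested. With TRMs 12 rose and 9 fell, 17.2% of them, and with monocytes 13 rose and 13 fell, 21.3%, beside the 18.4% and 27.3% of all genes. Without TRM replicate 2, 10 rather than 21 were called with TRMs, and 1219 rather than 2262 of all genes. Their median log2 fold change was 0.04 with TRMs and 0.09 with monocytes. None of the 21 interferon genes listed as ligands is a row of the table, in which every gene has at least 91 reads in all, and their levels are not analysed here.

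Of the 6 receptor genes, 1 fell with TRMs (16.7%) and 2 fell with monocytes (33.3%), and none rose. Among all genes 8.15% and 12.7% were called lower. The lambda receptor chain Ifnlr1 fell in both co-cultures. It stood at 39.4, 34.5 and 29.4 scaled CPM with TRMs, at 25.5, 23.2 and 32.4 with monocytes, and at 50.0, 69.5 and 48.7 alone. The fall was 1.62-fold with TRMs (limma adjusted p = 0.0250) and 2.07-fold with monocytes (limma adjusted p = 0.00164); the first of these no longer passed when alone replicate 2 (0.0939), TRM replicate 2 (0.0798) or TRM replicate 3 (0.101) was left out. Ifngr1, the ligand-binding chain of the interferon gamma receptor, stood at 147, 124 and 135 with TRMs, at 88.2, 99.3 and 115 with monocytes, and at 174, 153 and 178 alone. It fell 1.68-fold with monocytes (limma adjusted p = 0.00168), while its log2 fold change with TRMs was -0.32 (limma adjusted p = 0.135). The type I receptor chains Ifnar1 (log2 fold change 0.17 with TRMs and 0.15 with monocytes) and Ifnar2 (0.31 and 0.38) and the second gamma chain Ifngr2 (0.04 and -0.01) were not called. Nor were the receptor kinases Jak1, Jak2 and Tyk2, whose log2 fold changes lay between -0.19 and 0.20 in both comparisons.

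Among the sensors of foreign RNA, called genes lay in both directions. Tlr3, the endosomal receptor for double-stranded RNA, stood at 26.7, 20.8 and 26.8 scaled CPM with TRMs, at 15.3, 19.7 and 30.6 with monocytes, and at 72.6, 69.7 and 72.4 alone. No co-culture library came near those of tumour cells alone: Tlr3 fell 2.91-fold with TRMs (limma adjusted p = 0.000461) and 3.41-fold with monocytes (limma adjusted p = 0.000119), under all 18 alternatives. The cytoplasmic sensor Ifih1 (MDA5) fell 2.11-fold with TRMs (limma adjusted p = 0.00964) and 2.03-fold with monocytes (limma adjusted p = 0.00926). The TRM call did not survive leaving out alone replicate 3 (0.0501) or TRM replicate 2 (0.0577). Its relative Ddx58 (RIG-I) rose 2.06-fold with monocytes, at 34.8, 44.7 and 18.5 against 14.7, 14.3 and 15.8 alone (limma adjusted p = 0.0132), a call lost without monocyte replicate 2 (0.0653). Of the 14 sensing genes tested, 0 rose and 2 fell with TRMs (14.3% called), and 1 rose and 2 fell with monocytes (21.4%). These shares were below the 18.4% and 27.3% of all genes called in either direction. Called lower were 8.15% and 12.7% of all genes.

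Among 7 other IRF and IRF-binding genes tested, 1 fell in each co-culture, 14.3% of them, and none rose. In both it was Irf2bp2, a co-repressor named for its binding of Irf2, at 525, 474 and 476 scaled CPM with TRMs, at 543, 434 and 429 with monocytes, and at 772, 688 and 757 alone. No co-culture library overlapped those of tumour cells alone. Irf2bp2 fell 1.5-fold with TRMs (limma adjusted p = 0.00780) and 1.58-fold with monocytes (limma adjusted p = 0.00264). On the opposite strand, Gm26759 overlaps 1039 of the 5080 exon bases of Irf2bp2. Of its 31-base stretches, 20.4% occur in other genes, mainly Gm26759.

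The list of antiviral effectors held 52 tested genes, of which 7 rose and 3 fell with TRMs and 6 rose and 6 fell with monocytes, with medians of -0.10 and 0.18 on the log2 scale. The called shares, 19.2% with TRMs and 23.1% with monocytes, lay near those of all genes. Those with the smallest p-values with TRMs were Isg20, an exonuclease (1.84-fold higher, limma adjusted p = 0.00495), Ifi205, of the Ifi200 family of the mouse (3.15-fold higher, 0.00546), Helz2, a helicase-like coactivator (1.92-fold lower, 0.00621) and Tdrd7 (1.80-fold higher, 0.00660). With monocytes they were Helz2 (1.97-fold lower, 0.00344), Pml, the organiser of PML nuclear bodies (2.09-fold higher, 0.00390), Tdrd7 (1.83-fold higher, 0.00400) and Ifi27 (2.03-fold higher, 0.00460). All of these calls held under the 18 alternatives. Ifi205 shares 22.1% of its 31-base stretches with other genes, mainly Mndal. Oasl1, singled out after its values were seen, stood at 8.79, 4.98 and 3.85 scaled CPM with TRMs, at 0.622, 5.72 and 5.74 with monocytes, and at 17.0, 14.2 and 17.2 alone. It fell 5.87-fold with monocytes (limma adjusted p = 0.0121), and 2.80-fold without monocyte replicate 1. With TRMs its 3 libraries also lay below those of tumour cells alone, but the log2 fold change of -1.54 was not called (limma adjusted p = 0.131). It passed under 5 of 18 alternatives: with log2(value + 1) (0.0495), in DESeq2 (0.0327), in limma-voom (0.0207), with the compared groups alone (0.00406) and without monocyte replicate 1 (0.00394).

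Isg15 conjugation depends on an enzyme cycle whose 5 genes were all tested. In each co-culture 1 of them rose (20.0%) and none fell. Among all genes 10.2% were called higher with TRMs and 14.7% with monocytes. Ube2l6, the conjugating enzyme, stood at 10.9, 12.9 and 10.5 scaled CPM with TRMs, at 8.95, 14.0 and 10.1 with monocytes, and at 4.93, 5.55 and 5.93 alone. It rose 2.09-fold with TRMs (limma adjusted p = 0.0108) and 1.98-fold with monocytes (limma adjusted p = 0.0113); the calls were lost without replicate 2 of the TRM group (0.0657) and of the monocyte group (0.0559). Usp18, which removes Isg15 from proteins and also restrains the type I receptor, stood at 11.3, 7.93 and 8.37 with TRMs, at 6.41, 14.6 and 9.28 with monocytes, and at 5.24, 5.68 and 5.15 alone. Its co-culture libraries all lay above those of tumour cells alone, with log2 fold changes of 0.76 (limma adjusted p = 0.111) and 0.83 (limma adjusted p = 0.0644), the second of which passed in edgeR (0.0456), in DESeq2 (0.0325) and without monocyte replicate 1 (0.0190). The modifier itself, Isg15, showed no such order. Ube2l6 shares 15.5% of its 31-base stretches with other genes, mainly Gm17167.

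Guanylate-binding proteins are large GTPases that interferon gamma induces. Of 12 tested genes of this and the related IRG family, 1 rose with TRMs, 3 rose with monocytes and none fell, and the list medians were 0.70 and 0.99 on the log2 scale. That is 8.33% called with TRMs and 25.0% with monocytes, beside 18.4% and 27.3% of all genes called in either direction. Called higher were 10.2% and 14.7% of all genes. Gbp4 stood at 1.85, 2.33 and 1.69 scaled CPM with TRMs, at 5.49, 6.22 and 2.33 with monocytes, and at 0.915, 0.974 and 0.406 alone. With monocytes it rose 6.04-fold (limma adjusted p = 0.00430) and Gbp3 rose 5.37-fold (limma adjusted p = 0.00557), both under all 18 alternatives. Gbp2 rose 2.26-fold with TRMs (limma adjusted p = 0.0479) and 2.25-fold with monocytes (limma adjusted p = 0.0368), but each call was lost under 8 of 18 alternatives. With TRMs these were library-total scaling, limma-voom and leaving out 1 library, which ended the call for each of the alone libraries, for monocyte replicate 1 and for TRM replicates 2 and 3. With monocytes they were limma-voom, the compared groups alone, and again leaving out each of the alone libraries, monocyte replicates 1 and 2 or TRM replicate 2. Monocyte replicate 3 was the lowest library of its group for all 3 genes, at 2.33 for Gbp4, 2.55 for Gbp3 and 8.31 for Gbp2, and for Ddx58. Gbp4 shares 14.9% of its 31-base stretches with other genes.

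Among 15 tested chemokines and other interferon gamma targets, 2 fell with TRMs and 2 fell with monocytes, and none rose. The share called, 13.3% in each, was below the 18.4% and 27.3% of all genes called in either direction. Called lower were 8.15% and 12.7% of all genes. Cxcl10, a chemokine that draws T cells, stood at 3.16, 7.04 and 6.05 scaled CPM with TRMs, at 8.19, 7.64 and 11.5 with monocytes, and at 17.5, 12.2 and 26.9 alone. It fell 3.49-fold with TRMs (limma adjusted p = 0.00342) under all 18 alternatives. With monocytes its log2 fold change was -1.0 (limma adjusted p = 0.0522), which passed the threshold under 10 of 18 alternatives, DESeq2 (0.0141) and edgeR (0.0377) among them. Wars, a tRNA synthetase induced by interferon gamma, fell 1.62-fold with TRMs (limma adjusted p = 0.00344) and 1.63-fold with monocytes (limma adjusted p = 0.00219). Tap1, a peptide transporter of antigen presentation, fell 3.86-fold with monocytes (limma adjusted p = 0.0445), a call lost under 12 of 18 alternatives, among them edgeR (0.0520), limma-voom (0.0674) and leaving out any library other than TRM replicate 1. All 3 called negative regulators were higher. Socs3, a feedback inhibitor of JAK kinases, stood at 209, 157 and 159 with TRMs, at 175, 131 and 135 with monocytes and at 102, 69.1 and 81.2 alone, and rose 2.09-fold with TRMs (limma adjusted p = 0.00121) and 1.75-fold with monocytes (limma adjusted p = 0.00451). Its relative Socs1 rose 2.03-fold with TRMs (limma adjusted p = 0.00886, lost without TRM replicate 2 at 0.0644) and 2.11-fold with monocytes (limma adjusted p = 0.00459). Cish rose 1.79-fold with TRMs (limma adjusted p = 0.00297). Of the 8 negative regulators tested, 3 rose with TRMs (37.5%) and 2 with monocytes (25.0%), and none fell. Among all genes 18.4% and 27.3% were called in either direction, and 10.2% and 14.7% were called higher.

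**Figure D4:**
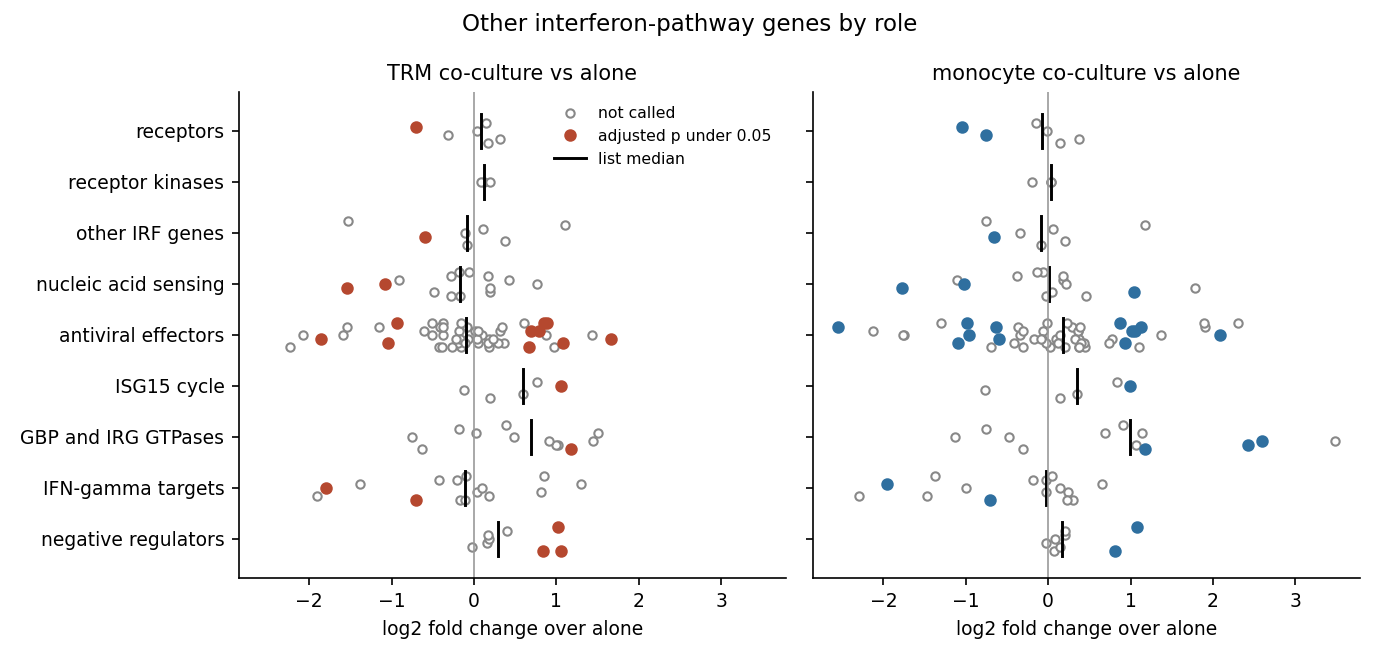
Log2 fold changes over tumour cells alone of 122 interferon-pathway genes in 9 role lists, with TRM co-culture on the left and monocyte co-culture on the right; filled points have an adjusted p under 0.05, open points do not, and black bars are list medians. The medians of the GBP and IRG genes are 0.70 and 0.99. Called receptor, IRF and IFN-gamma target genes (1, 1 and 2 with TRMs, 2, 1 and 2 with monocytes) lie to the left. Called ISG15-cycle, GBP and negative-regulator genes (1, 1 and 3 with TRMs, 1, 3 and 2 with monocytes) lie to the right. Called antiviral effectors lie on both sides.

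Between the TRM and monocyte co-cultures, set directly against each other, limma called none of these genes. Of the 7 members, 0 were called by limma, 1 (Bst2) had an unadjusted p under 0.05, and edgeR called 0 and DESeq2 1. Of the other 122 pathway genes, limma called 0, with 16 at an unadjusted p under 0.05, edgeR called 0, DESeq2 3 (Isg20, B2m and Cish) and limma-voom 1 (Cish). Cish, called with TRMs and not with monocytes, was 1.71-fold higher in TRM than in monocyte co-culture, with an adjusted p of 0.0583 by limma, 0.00137 by DESeq2 and 0.0419 by limma-voom. Without monocyte replicate 3, limma called Ddx58 (adjusted p = 0.0176). Over all genes tested, 0.398% were called in this comparison. By limma on all 9 libraries, a gene called in one co-culture and not in the other is therefore not shown to differ between them.

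Cells other than tumour cells could add RNA to these libraries, so marker lists were read beside the members. Of 22 macrophage and monocyte markers, 13 are in the table, with summed levels of 176 to 317 scaled CPM with TRMs, 185 to 250 with monocytes and 151 to 242 alone, and none was at 0 reads over a group. Cd14 was the largest part of these sums, averaging 128 with TRMs, 123 with monocytes and 166 alone. The sums therefore say little of the markers with lower levels. In both co-cultures 2 of the 13 rose, where 10.2% of all genes were called higher with TRMs and 14.7% with monocytes. These were Mrc1 (6.23-fold with TRMs and 7.57-fold with monocytes) and F13a1 (14.0-fold with TRMs and 13.4-fold with monocytes). The limma adjusted p was 4.14e-05 or less for both genes in both co-cultures. Ptprc, the pan-leukocyte marker CD45, stood at 4.47, 0.501 and 0.875 with TRMs, at 0.135, 0.565 and 0.0210 with monocytes, and at 3.46, 1.43 and 0.916 alone. It averaged 1.95 with TRMs, 0.241 with monocytes and 1.93 alone, and was called lower with monocytes (limma adjusted p = 0.0361). In monocyte replicate 3, where 1 read is worth 0.0420689, the value of 0.0210 is the added 0.5 read alone. That call thus rests on values near the floor. The alveolar macrophage list, with 7 of 13 genes in the table, summed to 94.7 to 143 with TRMs, 76.3 to 85.5 with monocytes and 129 to 147 alone. Its largest part was Plet1, which averaged 49.7 with TRMs, 44.4 with monocytes and 94.3 alone. Of this list 1 rose and 1 fell with TRMs, and 1 rose and 4 fell with monocytes. Called lower among all genes were 8.15% with TRMs and 12.7% with monocytes, and called higher 10.2% and 14.7%. Of the lymphocyte list 1 gene of 8 is in the table and of the fibroblast and endothelial list 3 of 7, with no call. No neutrophil marker of 7 listed is in the table, and of the plasmacytoid dendritic cell list, a cell type known for type I interferon, 1 of 7 is (Ly6d) and Siglech is not. The part of macrophage RNA in the values of Bst2, Ube2l6 and the guanylate-binding protein genes was not tested.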

How the data were processed

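RNA was measured in 9 libraries, 3 per group, grouped by the sample labels. Per the submitters' processing notes, the authors used STAR 2.5, edgeR and the mm10 build; the counting tool and its annotation were not given in the sources used here. For 12339 genes the deposited values are a scaled signal (scaled CPM): reads of the gene with 0.5 read added, over a library size corrected with TMM factors. All 111051 values (100%) gave whole reads within 1e-06 of a read. Library totals were 16001895 to 32771448 reads. The authors' deposited tables of comparisons hold log2 fold changes and a likelihood ratio score, per the file headers, with the authors' p-values and false discovery rates; no test here uses them, and their values are printed for Ifit1bl1 alone.

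Log2 values were tested with limma 3.58.1 in R 4.3.3 over all 9 libraries, with group means as terms, a variance prior that follows mean level and 6 residual degrees of freedom. A filter (edgeR's filterByExpr, minimum count 10, minimum total 15) left 12326 genes, and p-values were two-sided and Benjamini-Hochberg adjusted over all of them in each of 3 comparisons, called under 0.05. Intervals are at 95%. The added 0.5 read makes fold changes of low genes too small. Alternatives were edgeR 4.0.16 on the recovered reads, which called 2183 genes with TRMs, 3255 with monocytes and 44 between the co-cultures, DESeq2 1.42.0, limma-voom, other filters, a pseudocount of 1, library totals, the compared groups alone, a replicate block and leaving out each library. The fits were tested on simulated counts. Computation outside R used Python 3.11.15.

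Of the role lists, 2 genes are not reported here. The members, the role lists, the marker lists and the naming rule were chosen with earlier results of these data known. The rule named all members, up to 4 called genes per role list and comparison by smallest adjusted p (all where 5 or fewer were called), 9 receptor, kinase, feedback and effector genes in any case, and the 3 genes most correlated with each member over the 9 libraries. Of the markers it named Ptprc, Mrc1, F13a1 and Siglech, and any whose level moved with a member. Gene positions, exon lengths and shared 31-base stretches come from GENCODE M21, and promoter sequences from RefSeq on GRCm38.p6; all 7 members matched.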

Additional observations from a re-analysis of the deposited data

How the results depend on the processing

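Each member's log2 fold change was recomputed under 18 alternatives in 3 comparisons, 17 for Isg15, which a filter of 1 scaled CPM in 3 libraries removed. Of 375 such values, 354 kept their direction and side of the threshold, 1 gained a call (Bst2 between the co-cultures, -0.85 by DESeq2) and 20 changed sign, none in a comparison in which the gene was called. Changes of sign came with leaving out 1 library, over which the log2 values ran from -0.73 to 0.64 for Ifit1bl1, -0.22 to 0.65 for Isg15 and -0.02 to 0.49 for Irf1 in TRM over monocyte co-culture; from -0.05 to 0.62 for Isg15, -0.34 to 0.08 for Stat2, -0.39 to 0.15 for Irf1 and -0.59 to 0.09 for Irf7 with TRMs; and from -0.47 to 0.49 for Isg15 with monocytes. Isg15 also changed sign between the co-cultures in edgeR (-0.0025). The cause was not tested.

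Leaving out 1 library, all genes called ran from 1219 to 2593 with TRMs, from 2239 to 3529 with monocytes and from 0 to 134 between the co-cultures, beside 2262, 3366 and 49; other pathway genes called ran from 10 to 24 with TRMs and from 0 to 1 between the co-cultures, beside 21 and 0. Each such fit has 1 sample fewer by construction. Between the co-cultures all genes called came to 75 with log2(value + 1), 336 with DESeq2, 86 with limma-voom and 79 with the replicate block; pathway genes called came to 3 with DESeq2 and 1 with limma-voom, and members called to 1 with DESeq2. Replicate numbers were not taken to pair the libraries, since no label says so: deviations of same-numbered libraries correlated between -0.0246 and 0.429 over genes, mostly above 0 but not all over 0.1, and not every library correlated best with its own number. The replicate block called 2392 genes with TRMs and 3511 with monocytes and changed no member's call; of the pathway calls it ended 3, those of Eif2ak2 (0.0534), Sp100 (0.0539) and Tap1 (0.0550) with monocytes, and it added 3, Cxcl10 with monocytes (0.0350) and Irgm1 (0.0435) and Fas (0.0413) with TRMs.

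With 3 libraries per group, small differences cannot be called; Isg15 and Irf7 have few reads, and the table starts at 91 reads per gene, so the interferon genes themselves were not analysed here.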

Other observations

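The genes most like each of the other members over the 9 libraries, by Pearson's r of log2 levels and as a description, differed from member to member. Bst2 was closest to Scx, a transcription factor of tendon cells, and Rhbdd2 (r = 0.982 each) and to Zw10 (0.980). Irf9 was closest to St3gal5 (0.962), Bambi, a pseudoreceptor that dampens TGF-beta signals (0.951), and Bgn, the matrix proteoglycan biglycan (0.929). Irf1 was closest to Cxcl1, a neutrophil chemokine (0.958), Mecom (0.956) and Asph (0.938), and Stat2 to Zfp27 (0.966) and Tmem38a (0.961). Irf7 and Isg15, the members with the fewest reads, had lower top values, of 0.907 for Irf7 with Pglyrp4 and 0.876 for Isg15 with Zc3h15. Among the members, Stat2 and Irf1 had the highest correlation (r = 0.852), and Bst2 and Ifit1bl1 the lowest (r = -0.647). These values rest on 9 libraries that share 3 groups.

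The ISRE letters described above lay before the start in 26 of 124 windows of the other tested interferon-pathway genes and in 2.55% of the windows of all tested genes, and the GAS letters in 15 of those pathway windows and 5.84% of those of all tested genes.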
